A study of Danio rerio with 8 samples.

Results

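Mitosis genes are described here in the cornea of adult zebrafish, the transparent outer layer of the eye, in control fish and 1.5 h after its epithelium was abraded. The genes were chosen as a list of 34 zebrafish symbols for proteins that act in cell division. The rule used no measured values, but the list was chosen with earlier results of these data known. With case ignored, 31 of the 34 symbols matched 1 identifier each among the 32520 genes of the count table, and birc5a, incenp and prc1b did not match. Of the 31, 30 had enough counts to be tested for an effect of abrasion, and ccnb2 did not.

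All fish were wild type on the AB background. Corneas of the control group were untreated, from fish that were anaesthetised and placed on a sponge, and both corneas of each wounded fish were abraded and collected 1.5 h later. Each group had 4 libraries, and each library held 6 corneas of 3 fish, so the library is the replicate. Libraries with the same number came from fish of one tank and one age, which was 180 days for tank 1, 145 days for tank 2, 148 days for tank 3 and 183 days for tank 4. The study left wounded library 1 out of its comparison after a principal component analysis, and its values stand apart here as well, so wounded corneas are libraries 2 to 4 unless all 8 are named.

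A cell enters mitosis when the kinase Cdk1, bound to a B-type cyclin, is activated by a Cdc25 phosphatase. Polo and Aurora kinases then build the spindle, the spindle checkpoint holds the cell until every kinetochore is attached, and the anaphase promoting complex ends mitosis by marking cyclin B and securin for destruction. Most of these genes are transcribed late in the cell cycle, so their RNA is concentrated in dividing cells.

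The libraries held 39472162 to 44250662 counts. Values are given as CPM, counts per 1000000 counts of the library after scaling by TMM (trimmed mean of M values). The summed CPM of 12 corneal epithelium marker genes was 95202 to 100138 in controls, 89121 to 92486 in wounded libraries 2 to 4, all below every control, and 59214 in wounded library 1. Gene by gene, 1 of the 12 lay below every control in wounded libraries 2 to 4 and 1 above. These separations were found for 9.02% and 8.51% of all genes tested. The log2 fold change was negative for 9 of the 12 and positive for 3. The part of the difference in summed CPM in the results on abrasion was not tested. Of the other lists, 6 lens genes summed to at most 0.59 CPM with 2 at 0 in every library, 16 retina genes to 141 to 377 CPM, 8 leukocyte genes to 510 to 942 CPM and 10 keratocyte and stroma genes to 6550 to 17587 CPM. No gene of these lists passed the test for abrasion in edgeR or in DESeq2.

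The mitosis genes had few counts. Together they held 1890 to 3639 counts in a control library and 2248 to 3160 in wounded libraries 2 to 4, and 961 to 2550 and 1287 to 2123 without ect2, the exchange factor that starts cytokinesis. The median member was at 1.22, 1.12, 1.89 and 0.672 CPM in control libraries 1 to 4 and at 0.979, 1.56 and 0.881 CPM in wounded libraries 2 to 4. Wounded library 1 had a median of 0.663 CPM, the lowest of the 8. In these whole corneas, fewer dividing cells and less of the RNA in each cell cannot be told apart.

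**Figure D1:**
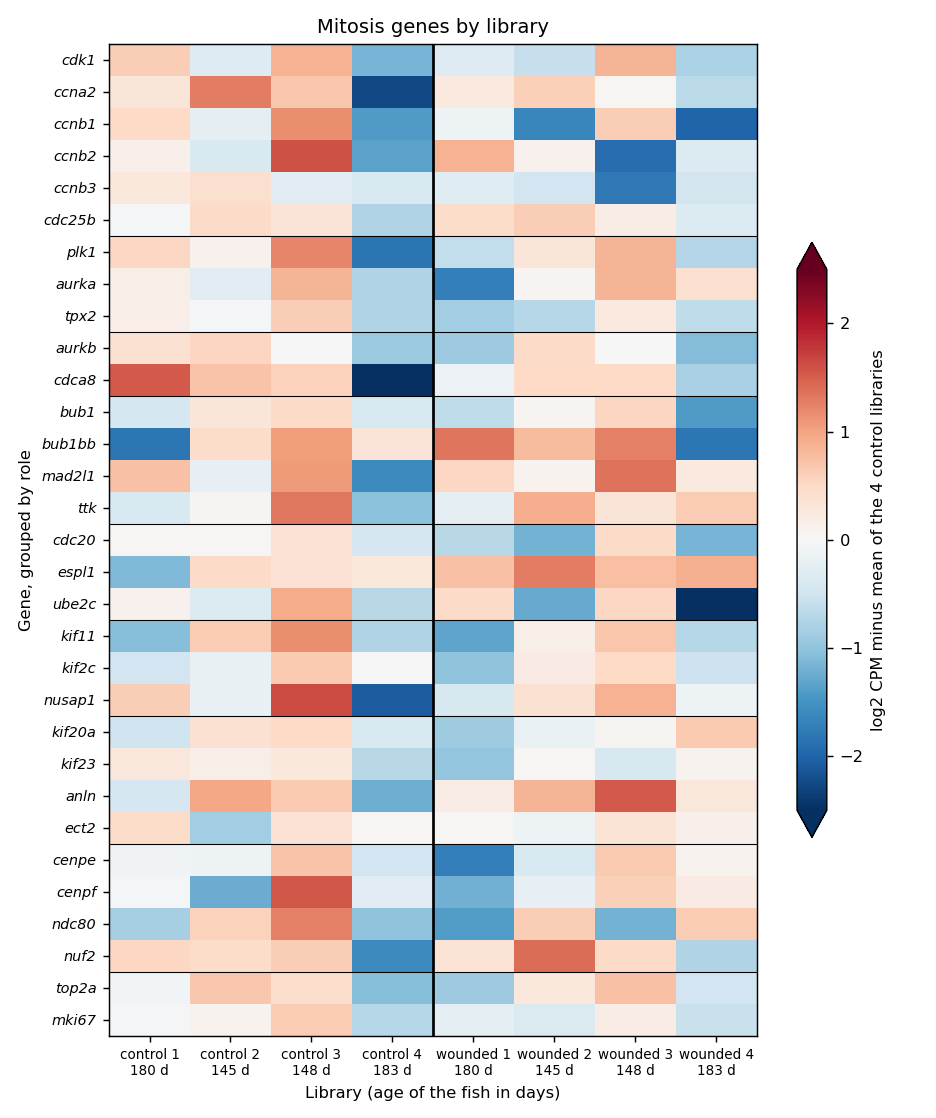
Level of each of the 31 mitosis genes (rows, grouped by role) in each of the 8 libraries (columns), as log2 CPM with a prior count of 2, minus the mean of the 4 control libraries (red higher, blue lower). Control library 3 was the highest control for 20 of 30 tested genes and control library 4 the lowest for 22 of 30.

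The first question was whether RNA of these genes differed between wounded and control corneas at 1.5 h. No mitosis gene was called higher or lower, with 0 of 30 past an adjusted p of 0.05 in the edgeR quasi-likelihood test. Of all 18935 genes tested, 1.37% passed (0.734% higher and 0.634% lower). None of the 30 had an unadjusted p under 0.05, against 18.5% of all genes. DESeq2 called 0 members, with 0 at an unadjusted p under 0.05, and it gave an adjusted p to 12 of them (9.03% of all genes called, 4.22% higher and 4.8% lower). With the tank as a block, edgeR also called 0 members, with 0 at an unadjusted p under 0.05 (5.22% of all genes called, 2.71% higher and 2.51% lower). In that fit control library 1 had no wounded partner, so the estimates rested on tanks 2 to 4. With all 8 libraries and no block the count was again 0, with 0 at an unadjusted p under 0.05 (1.26% of all genes called). With all 8 libraries and the block, 1 of 29 members had an unadjusted p under 0.05 in edgeR. Without control library 2 it was 1 of 30, and without wounded library 3 it was 3 of 29. The matching shares of all genes are not at hand for these fits, so the counts cannot be read as an excess. In the first fit that share was 18.5%.

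The log2 fold change was positive for 13 members and negative for 17, and its median was -0.09, against 0.01 over all genes tested. It ran from -0.90 for ccnb3 to 0.92 for espl1, and the smallest adjusted p was 0.400 (edgeR, espl1). The sign of the median depended on single libraries. The median was 0.23 without control library 3, 0.14 without wounded library 4, -0.31 without control library 4 and -0.21 without wounded library 3. With the block it was 0.01, and with all 8 libraries -0.26.

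How large a change the data could still hold differed between members. The 95% interval of the log2 fold change lay within 1 of 0, that is within a 2-fold change in either direction, for 6 of 30 members, which were kif2c, cenpe, cdc25b, kif23, kif20a and ect2. For 10 members the interval reached past 1 in both directions. The interval was narrowest for ect2 (-0.57 to 0.64), the member with the most counts. It was widest for bub1bb (-2.26 to 2.86), which had 0 to 14 counts in a library of this fit.

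**Figure D2:**
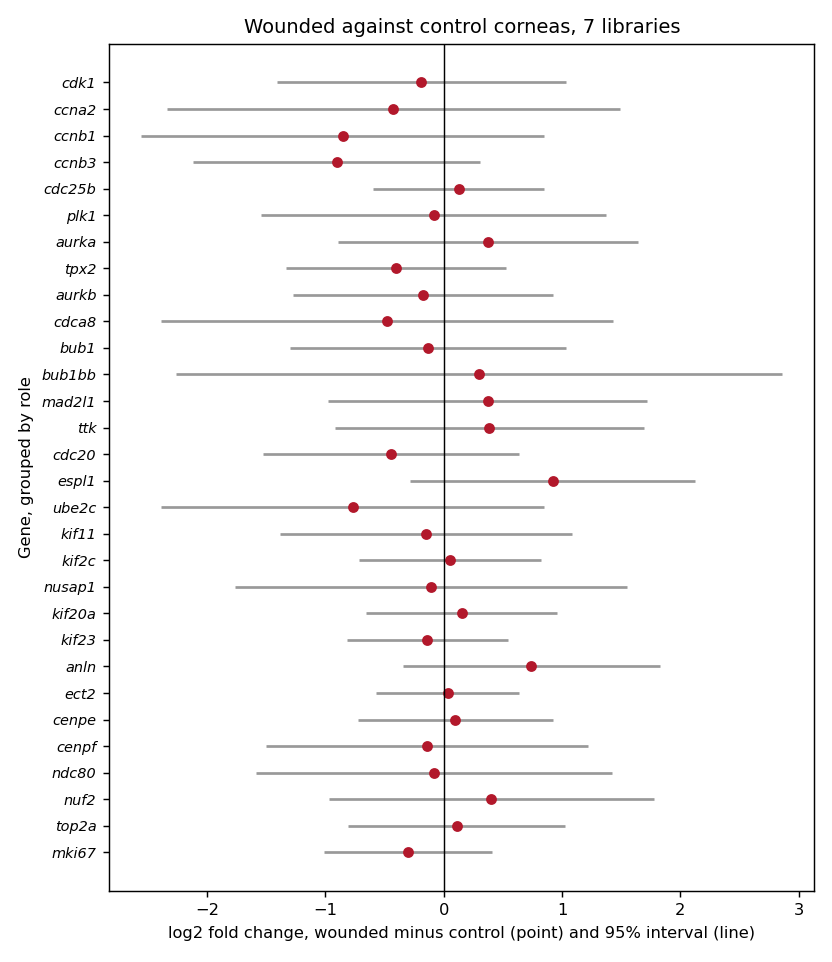
Log2 fold change of wounded (libraries 2 to 4) against control (libraries 1 to 4) corneas for the 30 tested mitosis genes, points with 95% intervals from the edgeR fit, grouped by role. Every interval includes 0, and the points run from -0.90 for ccnb3 to 0.92 for espl1.

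Among the genes of mitotic entry, 0 of 5 tested members passed. The level of cdk1 (ENSDARG00000087554), the kinase that drives entry, was 2.41, 1.23, 2.88 and 0.672 CPM in control libraries 1 to 4 and 1.03, 2.86 and 0.881 CPM in wounded libraries 2 to 4. Its groups overlapped over most of their range, with tank 3 high and tank 4 low in both. The means were 1.80 ± 1.02 CPM (SD, n = 4) and 1.59 ± 1.103 CPM (SD, n = 3), and the log2 fold change was -0.19 (95% interval -1.41 to 1.03, adjusted p = 0.897, edgeR).

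Cyclin B1 is the partner that activates Cdk1, and ccnb1 (ENSDARG00000051923) was at 1.44, 0.846, 2.31 and 0.347 CPM in the controls and 0.294, 1.56 and 0.214 CPM in wounded libraries 2 to 4. In each of these 3 tanks the wounded library lay below its own control, while the groups as wholes overlapped. Over the groups it was -0.85 on the log2 scale (SE 0.77, adjusted p = 0.601, edgeR), and with the tank as a block it was -0.91 (SE 0.47, adjusted p = 0.284).

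The gene of cyclin B3, ccnb3 (ENSDARG00000034855), was at 0.895, 0.983, 0.596 and 0.556 CPM in controls and at 0.514, 0.179 and 0.524 CPM in wounded libraries. It was the only member whose wounded libraries 2 to 4 all lay below every control, a separation found for 9.02% of all genes tested. Wounded library 1, at 0.592 CPM, lay within the control range. Its log2 fold change was -0.90 (SE 0.55, adjusted p = 0.414, edgeR).

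For ccna2, the cyclin of DNA synthesis and mitotic entry, the range was 0.0232 to 0.777 CPM in controls and 0.167 to 0.465 CPM in wounded libraries 2 to 4. The lowest of these values stood for 1 count. The phosphatase gene cdc25b, which removes the inhibitory phosphate groups from Cdk1, gave 2.25 to 5.30 CPM in controls and 3.00 to 5.85 CPM in wounded libraries, with a log2 fold change of 0.13 (95% interval -0.59 to 0.85). The untested ccnb2, a B-type cyclin, had 1 to 20 counts in the controls and 0 to 6 in wounded libraries 2 to 4.

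Of the mitotic kinase genes, plk1 encodes the Polo kinase of spindle assembly and aurka the Aurora kinase of the spindle poles. The level of plk1 (ENSDARG00000058471) was 1.14, 0.846, 1.89 and 0.185 CPM in controls and 0.979, 1.46 and 0.453 CPM in wounded libraries. The controls alone spread over 10.2-fold, and all 3 wounded values fell inside their range. For plk1 the fold change was -0.08 on the log2 scale (95% interval -1.54 to 1.37, adjusted p = 0.965, edgeR).

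The kinase gene aurka ranged from 0.232 to 0.794 CPM in controls and from 0.441 to 0.792 CPM in wounded libraries, with a log2 fold change of 0.38 (SE 0.57). Its activator on the spindle, tpx2, ranged from 0.857 to 2.28 CPM and from 0.881 to 1.76 CPM, with a log2 fold change of -0.40 (SE 0.42). Neither gene passed, and the groups overlapped for both.

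In the spindle checkpoint, 0 of 4 members passed. The kinase gene bub1 ranged from 0.672 to 1.29 CPM in controls and from 0.310 to 1.35 CPM in wounded libraries 2 to 4, mad2l1 from 0.232 to 1.74 CPM and 0.857 to 2.12 CPM, and ttk, the kinase that recruits the checkpoint to kinetochores, from 0.255 to 1.49 CPM and 0.715 to 1.101 CPM. Their log2 fold changes were -0.13, 0.37 and 0.39. The gene bub1bb, for the checkpoint protein that holds Cdc20 together with Mad2, had 0 to 12 counts in controls and 0 to 14 in wounded libraries 2 to 4. The gene mad2l1, for the protein that binds Cdc20 and blocks it, had a log2 CPM difference, wounded minus control, of 0.30, 0.28 and 1.84 in tanks 2 to 4 and of -0.23 in tank 1.

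The chromosomal passenger complex, which corrects wrong attachments, was represented by its kinase gene aurkb and its borealin gene cdca8, since the symbols of its survivin and INCENP members were not matched. The aurkb range was 0.533 to 1.55 CPM in controls and 0.476 to 1.49 CPM in wounded libraries. That of cdca8 was 0.0232 to 1.39 CPM and 0.238 to 0.664 CPM. Neither passed, with log2 fold changes of -0.17 (SE 0.50) and -0.48 (SE 0.87).

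An identifier with the human-style symbol BIRC5, the symbol of survivin, lay outside the list's rule. Its level was 0.394 to 1.56 CPM in controls and 0.434 to 1.07 CPM in wounded libraries 2 to 4, with a log2 fold change of -0.26 (adjusted p = 0.837, edgeR). A pair of identifiers share the symbol PRC1, the crosslinker of midzone microtubules, and had log2 fold changes of -0.44 (adjusted p = 0.764) and -0.54 (adjusted p = 0.376). Which of them corresponds to prc1b was not resolved.

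At the kinetochore, the site where spindle microtubules attach to a chromosome, 0 of 4 members passed. The log2 fold changes were 0.10 (SE 0.37) for the motor gene cenpe, -0.14 (SE 0.62) for cenpf, -0.08 (SE 0.68) for ndc80 and 0.40 (SE 0.62) for nuf2. The products of ndc80 and nuf2 sit in the same complex, which grips the microtubule. The log2 CPM difference of ndc80, wounded minus control, was 0.03, -2.44 and 1.65 in tanks 2, 3 and 4. That of nuf2 was 0.93, -0.14 and 0.84. In tank 1 the differences were -0.56 for ndc80 and -0.19 for nuf2.

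Spindle motors and microtubule proteins gave 0 of 3. The level of kif11 (ENSDARG00000010948), the motor that pushes spindle poles apart, was 0.721, 2.45, 3.55 and 0.903 CPM in controls and 1.71, 2.55 and 0.929 CPM in wounded libraries 2 to 4. Tanks 2 and 3 were high and tank 4 was low in both groups. The log2 fold change was -0.15 (95% interval -1.38 to 1.09, adjusted p = 0.922, edgeR).

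The microtubule depolymerase gene kif2c had a log2 fold change of 0.05 (SE 0.35). That of nusap1, for a protein that bundles spindle microtubules, was -0.10 (SE 0.75). Both had overlapping groups, with 1.67 to 3.70 CPM against 1.62 to 3.32 CPM for kif2c and 0.0926 to 1.81 CPM against 0.500 to 1.05 CPM for nusap1.

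Of the genes that end mitosis, espl1 (ENSDARG00000075354) encodes separase, the protease that cuts the rings holding sister chromatids together. Its level was 0.149, 0.549, 0.496 and 0.463 CPM in controls and 0.979, 0.664 and 0.738 CPM in wounded libraries 2 to 4, with 0.663 CPM in wounded library 1. All 4 wounded libraries lay above every control, and espl1 was the only member whose libraries 2 to 4 did so, a separation found for 8.51% of all genes tested. The means were 0.414 ± 0.180 CPM (SD, n = 4) and 0.794 ± 0.165 CPM (SD, n = 3), from 6 to 40 counts per library, and the fitted difference was 0.92 on the log2 scale (SE 0.55, adjusted p = 0.400, edgeR).

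The gene cdc20, for the activator of the anaphase promoting complex, ranged from 0.949 to 1.66 CPM in controls and from 0.538 to 1.81 CPM in wounded libraries, with a log2 fold change of -0.45 (SE 0.49). That of ube2c, for the enzyme that supplies ubiquitin to the complex, was -0.77 (SE 0.73), from 0.672 to 2.18 CPM and 0.119 to 1.63 CPM. With the tank as a block the ube2c value was -1.15 (SE 0.52, adjusted p = 0.230, edgeR).

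Among the genes of cytokinesis, anln (ENSDARG00000060917) encodes anillin, the scaffold of the contractile ring. It was at 1.37, 3.66, 2.90 and 0.764 CPM in controls and at 3.33, 5.41 and 2.24 CPM in wounded libraries 2 to 4, with 2.08 CPM in wounded library 1. The wounded library was the higher one in tanks 1, 3 and 4 and the lower one in tank 2. The log2 fold change was 0.74 (95% interval -0.34 to 1.82, adjusted p = 0.455, edgeR), and 0.72 with the tank as a block (adjusted p = 0.250).

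The midzone motor genes kif20a and kif23 had log2 fold changes of 0.15 (SE 0.37) and -0.14 (SE 0.31). The exchange factor gene ect2 was at 28.8, 11.4, 27.0 and 21.5 CPM in controls and at 19.2, 26.5 and 22.9 CPM in wounded libraries, with a log2 fold change of 0.03 (95% interval -0.57 to 0.64). Control library 2 was the lowest of the 7, and the other libraries of both groups overlapped.

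For the 2 chromosome proteins of the list, 0 passed. The level of mki67 (ENSDARG00000091150), a coat protein of mitotic chromosomes widely used as a marker of cycling cells, was 4.23, 4.59, 6.70 and 2.62 CPM in controls and 3.33, 4.90 and 2.91 CPM in wounded libraries 2 to 4. The wounded values all fell inside the control range. The log2 fold change was -0.30 (95% interval -1.01 to 0.41, adjusted p = 0.667, edgeR).

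The level of top2a (ENSDARG00000024488), the topoisomerase that untangles sister chromatids, was 2.56, 4.32, 3.65 and 1.25 CPM in controls and 3.23, 4.47 and 1.91 CPM in wounded libraries. The groups overlapped over nearly their whole range. Wounded corneas differed by 0.11 on the log2 scale (95% interval -0.81 to 1.03, adjusted p = 0.921, edgeR).

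The libraries of one group differed more than counting error alone. The variance of a member's counts over the 4 control libraries, divided by their mean, had a median of 15.2, where counting alone gives 1, and it was above 1 for all 31 members. The highest control was more than 2-fold above the lowest for 27 of 31 members, bub1bb with a control at 0 included. Members tended to be high or low in the same libraries. Control library 3 was the highest control for 20 of 30 members (21.7% of all genes) and control library 2 for 7.

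Control library 4 was the lowest control for 22 of 30 members, against 23.7% of all genes, and the highest for 0. Among the wounded libraries, library 3 was the highest of 4 for 19 of 30 members (23.8% of all genes). The lowest was library 1 for 14 members (32.1% of all genes) and library 4 for 12 (25.3%). Wounded library 1 lay below every control for 10 of 30 members and above every control for 2, against 28.2% and 27.0% of all genes.

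Since a control and a wounded library came from each tank, the difference was also taken within tanks, as log2 CPM with a prior count of 2. In tank 1 the mitosis genes had a median of -0.55, against 0.01 over all genes, and 6 of 30 were higher in the wounded library. In tank 4 the median was 0.52, against 0.02 over all genes, and 22 of 30 were higher. Tanks 2 and 3 lay between these, with medians of -0.13 and -0.15 and 13 and 8 members higher. Each tank had 1 library per condition, so these differences have no replicate check.

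**Figure D3:**
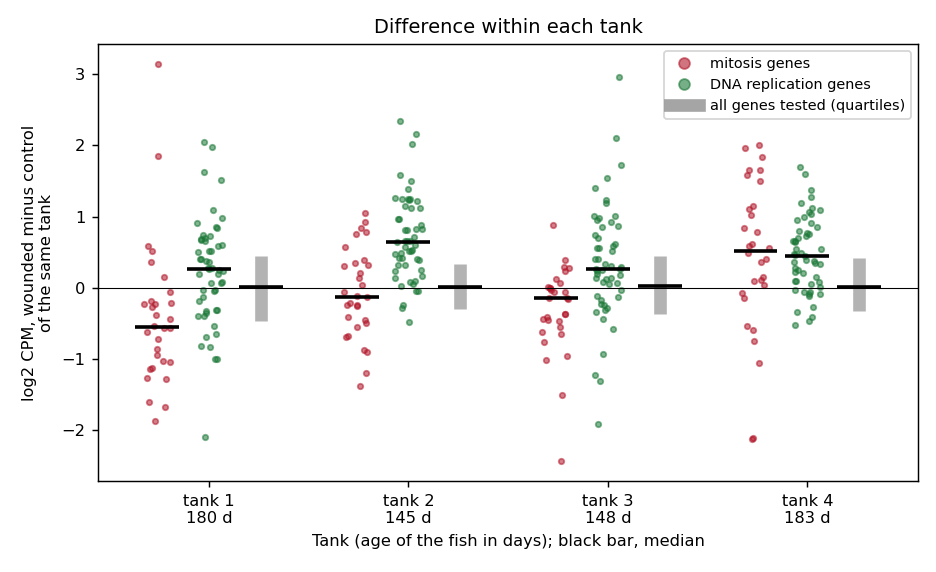
Difference in log2 CPM between the wounded and the control library of each tank for the mitosis genes and the DNA replication genes (points, with black bars at the medians), beside the quartiles of all genes tested. The mitosis genes had medians of -0.55, -0.13, -0.15 and 0.52 in tanks 1 to 4, and the DNA replication genes medians of 0.27, 0.64, 0.27 and 0.45.

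The mitosis genes therefore did not share one direction across tanks. In tanks 2 to 4, 2 of 30 members were higher in every wounded library (mad2l1 and espl1) and 3 were lower in every one (ccnb1, ccnb3 and ube2c). These shares were 6.67% and 10%, against 23.8% and 21.9% of all genes. With tank 1 added, espl1 remained among those higher, and ccnb1 and ccnb3 among those lower.

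The tanks also differed in age, and the levels were compared between the older fish (tanks 1 and 4, 180 and 183 days) and the younger (tanks 2 and 3, 145 and 148 days) over all 8 libraries, with abrasion as a covariate. Most mitosis genes had lower values in the older fish, but none passed the edgeR test. The log2 difference, older minus younger, was negative for 27 of 29 tested members, against 51.9% of all genes, and positive for ccnb3 and ect2. Its median was -0.76, against -0.01 over all genes, and it ran from -1.68 to 0.26. At an adjusted p of 0.05, edgeR called 0 of 29 members (0.129% of all genes called, 0.086% higher and 0.043% lower), while 6 had an unadjusted p under 0.05, all lower in older fish (7.16% of all genes in either direction).

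With 2 tanks per age class, age and tank cannot be told apart. The fits over 8 libraries count the control and the wounded library of a tank separately, though both came from the same tank. Their p-values are therefore likely too small, and the SDs over 4 libraries rest on 2 tanks. How far such libraries deviated together beyond age was not tested. With the 4 controls alone, in which each tank counts once, edgeR called 0 of 29 members (0.0586% of all genes called). In that fit 4 members had an unadjusted p under 0.05. The share of all genes at that level is not at hand, so the 4 cannot be read as an excess. The summed CPM of the 10 keratocyte and stroma genes differed between the same libraries, at 13852 to 17587 in the younger and 6550 to 9946 in the older. By gene, 6 of the 10 were lower in older fish by value and the rest were not (51.9% of all genes lower). The median log2 difference of the 10 was -0.16. None of those genes passed in edgeR, and DESeq2 called 3 lower (0.96% of all genes called in either direction). The part of these genes in the result was not tested. Leukocyte genes summed to 647 to 942 CPM in younger and 510 to 856 CPM in older libraries.

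**Figure D4:**
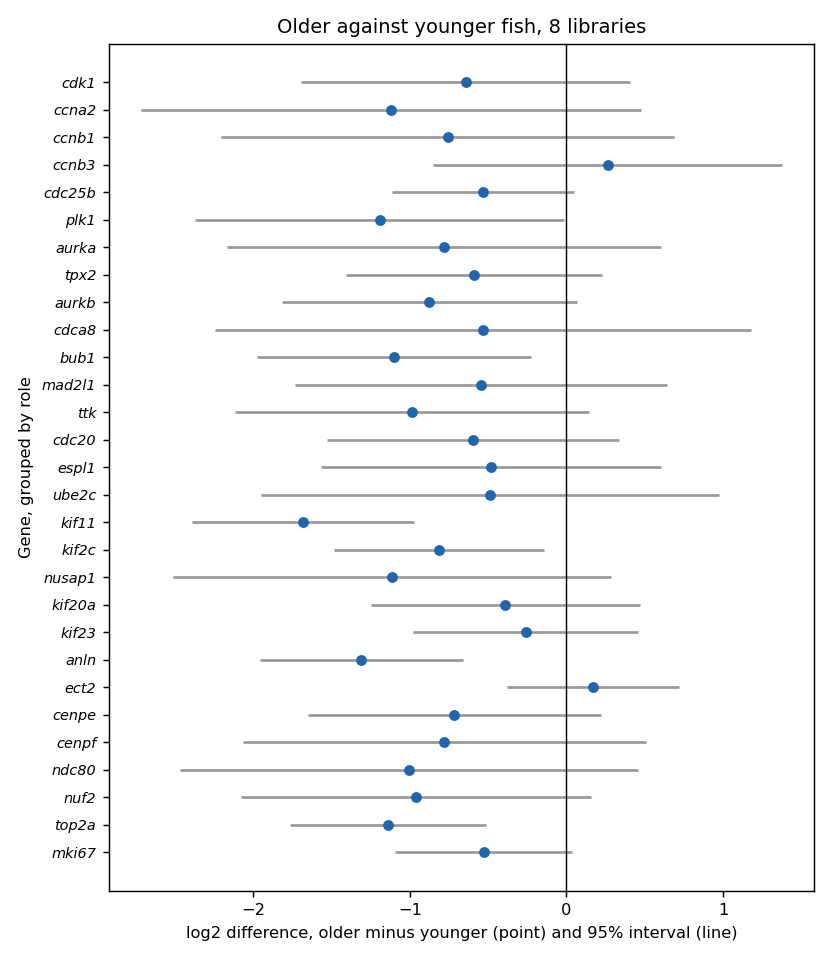
Log2 difference between older (180 and 183 days) and younger (145 and 148 days) fish for the 29 mitosis genes tested over 8 libraries, points with 95% intervals from the edgeR fit. The points of 27 genes lie below 0, and the intervals of kif2c, plk1, bub1, kif11, top2a and anln exclude 0.

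The gene with the largest difference was kif11. Its level was 2.45 and 3.55 CPM in the younger controls, 1.71 and 2.55 CPM in the younger wounded libraries, 0.721 and 0.903 CPM in the older controls and 0.592 and 0.929 CPM in the older wounded libraries. All 4 older libraries lay below all 4 younger ones. The means were 0.786 ± 0.159 CPM (SD, n = 4) in older and 2.57 ± 0.755 CPM (SD, n = 4) in younger fish, a log2 difference of -1.68 (SE 0.32, adjusted p = 0.0927, edgeR).

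The anillin gene anln was at 2.90 to 5.41 CPM in younger and 0.764 to 2.24 CPM in older libraries, and top2a at 3.23 to 4.47 CPM and 1.25 to 2.56 CPM. Neither gene overlapped between the ages, and the log2 differences were -1.31 (SE 0.30, adjusted p = 0.175, edgeR) for anln and -1.14 (SE 0.29, adjusted p = 0.248, edgeR) for top2a. The checkpoint gene bub1 was the fourth member without overlap, at 0.955 to 1.35 CPM and 0.310 to 0.695 CPM (log2 difference -1.103, adjusted p = 0.560, edgeR). Such a separation with the older libraries below was found for 4 of 29 members and for 1.8% of all genes. The reverse was found for 0 members and 1.99% of all genes.

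The calls depended on the tool and the filter. DESeq2 called kif11 (adjusted p = 0.00157), anln (adjusted p = 0.00989) and top2a (adjusted p = 0.0351) lower in older fish, with 0.96% of all genes called. When every gene with a count was kept, edgeR called the same 3 (adjusted p = 0.00128, 0.00412 and 0.0193, in that order), with 1.53% of all genes called.

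The direction was seen in each condition on its own, from the same 4 tanks. The median was -0.76 with the 4 controls, in which 28 of 29 members were negative, and -0.67 with the 4 wounded libraries, in which 28 of 30 were. Leaving out both libraries of a tank gave medians of -1.13 (tank 1), -1.07 (tank 2), -0.37 (tank 3) and -0.62 (tank 4). Without tank 3, 22 of 29 members were negative. Leaving out single libraries gave medians of -0.90 to -0.55.

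**Figure D5:**
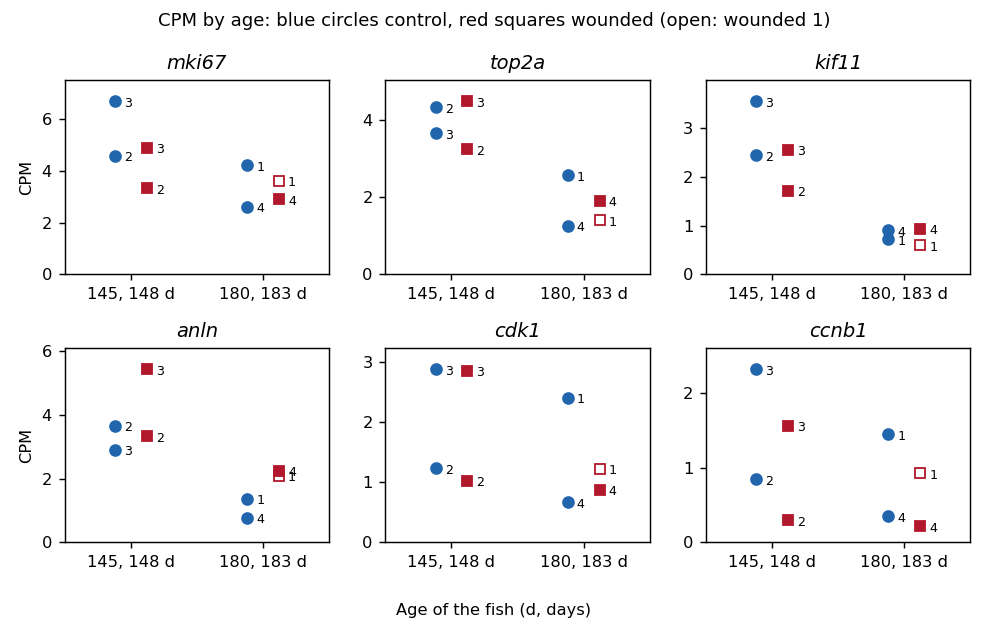
CPM of mki67, top2a, kif11, anln, cdk1 and ccnb1 in each library by age class, circles for control and squares for wounded corneas, with the tank number beside each point and wounded library 1 open. The older libraries of kif11 lie at 0.592 to 0.929 CPM and the younger at 1.71 to 3.55 CPM, while those of cdk1 and ccnb1 overlap.

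For cdk1 and ccnb1 the separation was not complete. The level of cdk1 was 1.03 to 2.88 CPM in younger and 0.672 to 2.41 CPM in older libraries (log2 difference -0.64, SE 0.48), and that of ccnb1 0.294 to 2.31 CPM and 0.214 to 1.44 CPM (log2 difference -0.76, SE 0.66). The marker gene mki67 was at 3.33 to 6.70 CPM and 2.62 to 4.23 CPM (log2 difference -0.53, SE 0.26, adjusted p = 0.742, edgeR).

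Whether abrasion acted differently at the 2 ages was tested as an interaction over all 8 libraries. Each age and condition had 2 libraries, and the older wounded pair included wounded library 1. Within the older tanks the median difference of the members was -0.55 in tank 1 and 0.52 in tank 4. The test could therefore detect little. No member passed in edgeR (0 of 29, smallest adjusted p = 0.9997) and none had an unadjusted p under 0.05, against 0% and 1.82% of all genes. DESeq2 called 0 members, and 0 of all genes.

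Other genes of the same process were taken from a wider list of 121 symbols, of which 97 matched, giving 89 tested identifiers. In wounded corneas 0 of 89 passed in edgeR, and 6 had an unadjusted p under 0.05, 5 higher and 1 lower, against 18.5% of all genes. The median log2 fold change was 0.04, with 50 positive and 39 negative. DESeq2 called 1 of the 49 to which it gave an adjusted p, against 9.03% of all genes. This was UBE2S, the enzyme that extends ubiquitin chains for the anaphase promoting complex (log2 fold change -0.66, adjusted p = 0.0344). With age, 62 of 88 were lower in the older fish by value over 8 libraries, with a median of -0.34. So were 47 of 53 DNA replication genes, with a median of -0.33, against 51.9% of all genes. With the 4 controls alone, 55 of 87 (median -0.16) and 38 of 51 (median -0.15) were lower, against 9429 of 18769 of all genes. Neither edgeR nor DESeq2 called a gene of these lists for age. The edgeR p before adjustment was under 0.05 for 14 of the 88 and 6 of the 53, against 7.16% of all genes.

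Genes of DNA replication, which precedes mitosis, had mostly positive values. Of 53 tested, 0 passed in edgeR (smallest adjusted p = 0.0601), against 1.37% of all genes. An unadjusted p under 0.05 was found for 20, all higher in wounded corneas, against 18.5% of all genes in either direction. Positive log2 fold changes numbered 48 of 53, against 9667 of all 18935 genes. The median log2 fold change was 0.51 (0.01 over all genes), or 0.12 when wounded library 2 was left out. In the fit with a block for the tank, 9 rose and 0 fell, beside 2.71% of all genes higher. These were TYMS (1.35) and dhfr (1.49, adjusted p = 0.00569), which supply thymidylate, the helicase subunits MCM2 (0.79), MCM4 (0.83), MCM5 (1.20, adjusted p = 0.0109) and MCM6 (0.90), the polymerase POLE (1.05), the nuclease FEN1 (0.92) and the ligase LIG1 (0.80).

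Within tanks 2 to 4, 27 of 53 replication genes were higher in every wounded library and 0 were lower in every one, against 23.8% and 21.9% of all genes. The number called moved with the fit: DESeq2 called 5 of them higher (4.22% of all genes), and edgeR with all 8 libraries and no block called 0. Whether the replication genes and the mitosis genes differed from each other was not tested.

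Of 16 tested transcription factor genes that act on late cell cycle genes, 5 had an unadjusted p under 0.05 (18.5% of all genes). Of these, 3 were higher and 2 lower in wounded corneas. After adjustment 1 of the 16 passed in edgeR, against 1.37% of all genes. This was e2f7 (ENSDARG00000008986, symbol E2F7), which in mammals encodes a repressor of cell cycle genes. Its level was 3.71, 3.50, 3.70 and 9.01 CPM in controls and 13.7, 15.5 and 18.9 CPM in wounded libraries 2 to 4. All 3 lay above every control, and wounded library 1, at 6.08 CPM, lay within the control range. Of the 16 genes, 3 were above every control in this way (8.51% of all genes tested) and 3 below (9.02%).

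The means for e2f7 were 4.98 ± 2.69 CPM (SD, n = 4) and 16.0 ± 2.65 CPM (SD, n = 3), a log2 fold change of 1.68 (SE 0.32, adjusted p = 0.0387, edgeR). The adjusted p was 0.00602 with the tank as a block and 0.0795 with all 8 libraries. Without 1 library the log2 fold change was 1.54 to 2.14, and the call was lost without control library 1 (adjusted p = 0.108) or 3 (0.128), and without any of wounded libraries 2 (0.06205), 3 (0.146) and 4 (0.114).

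DESeq2 called e2f7 and 1 more of these factor genes higher, tfdp2, a partner of E2F proteins (log2 fold change 0.71, adjusted p = 0.109 in edgeR and 0.0389 in DESeq2). Of all genes, DESeq2 called 4.22% higher. The activator of mitosis genes foxm1 did not pass the filter on low counts, at 0.0914 to 0.720 CPM in controls and 0 to 0.171 CPM in wounded libraries 2 to 4. Of the cyclins and regulators that start a cycle, 0 of 12 passed in edgeR and 4 had an unadjusted p under 0.05. The shares over all genes were 1.37% and 18.5%. With the tank as a block 1 was called higher and 1 lower (2.71% and 2.51% of all genes). DESeq2 called the same pair (4.22% and 4.8% of all genes), and both are named here after their values were seen. The gene mych, a Myc family member, was at 85.5 to 111 CPM in controls and 129.7 to 189 CPM in wounded libraries 2 to 4 (log2 fold change 0.67, adjusted p = 0.0495 with the block). Cyclin D1 binds the kinases that open the cycle, and CCND1 was at 44.4 to 52.2 CPM and 33.9 to 35.3 CPM (log2 fold change -0.51, adjusted p = 0.0443 with the block). Wounded libraries 2 to 4 lay above every control for 8.51% of all genes tested and below every control for 9.02%.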

How the data were processed

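The authors read polyadenylated RNA as single-end reads, converted them with bcl2fastq 2.20.0.422, mapped them to GRCz11 with STAR 2.6.0c and counted them per gene of Ensembl release 97 with featureCounts. Trimmomatic is named in the submitters' processing notes without settings. The libraries were made with a directional kit. Whether counting used strand is not given in the sources used here. It is therefore not known whether reads of overlapping antisense genes were told apart. Reads of near-identical copies cannot be told apart. The deposited values were raw counts per gene, one column per library, and 0 columns of other samples were left out. Library totals ran from 39472162 to 44250662 counts.

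Tests were run with edgeR 4.0.16 in R 4.3.3 (filterByExpr, TMM, quasi-likelihood test, Benjamini-Hochberg adjustment over all genes tested, threshold 0.05) and DESeq2 1.42.0. For the plots, matplotlib 3.10.9 was used in Python 3.11.15. Of these steps, only the edgeR fit for abrasion without a block was tested on simulated counts. Those counts had the same spread for all genes and no tank or age effect. Errors are the SD between libraries or the SE of the fit. Age classes were compared over 8 libraries with abrasion as a covariate. Alternatives were DESeq2's size factors and Wald test, 2 other filters on low counts, the tank as a block, all 8 libraries, age as a covariate, and each library left out. Dropping both libraries of a tank, and using wounded libraries only for age, were chosen after seeing the data.

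Per the study's methods, age-matched control and wounded fish came from the same tank. Both libraries of a number had the same age, so the numbers were taken to pair them. As a check, each library's deviation from the mean of its group was correlated between both libraries of a tank, which gave 0.158, 0.238, 0.215 and 0.293 for tanks 1 to 4. These deviations include the age that both libraries of a tank share, and other pairs of libraries were not compared. The check therefore cannot tell the pairing by tank from shared age. Its methods name no block, so the block was an alternative.

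Symbols came from reference tables that name 29201 of the 32520 identifiers. The members and the other lists were chosen with earlier results of these data known. Every member was named, with foxm1 and, of each other list, up to 4 genes per direction past the threshold. Others named were chosen after their values were seen. The symbol mybl2b was not matched. An identifier with the human-style symbol MYBL2 had a log2 fold change of 0.24 (adjusted p = 0.827, edgeR). Whether it corresponds to mybl2b was not resolved. Coordinates and promoter or protein sequences were not used here.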

Additional observations from a re-analysis of the deposited data

Results flagged for a closer look

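Of 62 groups of 4 libraries examined for a library far from the others, 2 had one, and chance alone flags about 1 group in 20. The gene nuf2, for a microtubule-binding protein of the kinetochore, was at 0.232 CPM in control library 4, against at least 1.12 CPM in the other 3 controls. The gap was 0.880 of the range, beyond Dixon's critical value for a group of 4. Control library 4 was also the lowest control for 22 of 30 mitosis genes.

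The gene tpx2, for the spindle activator of Aurora A, was at 1.76 CPM in wounded library 3, against 0.781 to 0.929 CPM in the other 3 wounded libraries, wounded library 1 included. Its gap was 0.849 of the range. Wounded library 3 was the highest of the 4 wounded libraries for 19 of 30 mitosis genes.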

How the results depend on the processing

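The count of mitosis genes called for abrasion was 0 in each of 16 fits, and the count called for age was 0 in edgeR except with every gene with a count (3 lower, as with DESeq2). Genes with few counts, 3 wounded libraries and the spread between tanks limit what these fits can detect. Of 436 values of single mitosis genes under abrasion alternatives, 58 changed sign and 0 passed the threshold. With the tank as a block, that is the pairing by replicate number, values became 0.020 (cdk1), 0.27 (plk1), -0.50 (bub1bb), 0.46 (cdca8), -0.0011 (kif20a), -0.11 (kif2c), 0.15 (cenpf) and 0.52 (nusap1), and the block called 514 genes higher, 475 lower and 9 replication genes higher. With the block and all 8 libraries they were -0.054 (aurka), -0.091 (kif20a), -0.20 (kif2c), -0.31 (cenpe), -0.10 (top2a) and 0.11 (nusap1), with 456 genes higher, 349 lower and 5 replication genes higher. With all 8 libraries and no block they were -0.051 (kif20a), -0.16 (kif2c), -0.19 (cenpe) and -0.10 (top2a), and with age as a covariate -0.40 (bub1bb), -0.087 (kif2c), 0.092 (ndc80) and -0.040 (top2a), with 193 genes lower and 1 replication gene higher. DESeq2 called 613 genes higher, 697 lower, 5 replication genes higher and 1 other mitosis gene lower, and every gene with a count gave 276 higher, 204 lower and 1 replication gene. At least 10 counts in every library also gave 1 replication gene. The cause of these moves was not tested.

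Leaving out 1 library gave 10 to 264 genes higher, 7 to 192 lower, 0 to 2 replication genes higher and a replication median of 0.12 (without wounded library 2) to 0.64. The log2 fold changes that changed sign ran from -0.91 to 0.14 (cdk1), -0.83 to 0.063 (ccna2), -0.50 to 0.40 (plk1), -0.57 to 0.17 (aurkb), -0.59 to 0.27 (bub1), -0.10 to 0.88 (bub1bb), -0.15 to 0.78 (mad2l1), -0.14 to 0.34 (cdc25b), -0.88 to 0.054 (cdca8), -0.53 to 0.34 (kif11), -0.12 to 0.35 (kif20a), -0.31 to 0.013 (kif23), -0.18 to 0.32 (kif2c), -0.20 to 0.41 (cenpe), -0.45 to 0.71 (cenpf), -0.35 to 0.49 (ndc80), -0.27 to 0.81 (nuf2), -0.20 to 0.38 (top2a), -0.47 to 0.66 (nusap1) and -0.19 to 0.19 (ect2).

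For age, values changed sign without tank 3 for cdk1 (0.18), ccnb1 (0.47), ccnb3 (-0.18), mad2l1 (0.26), cdc20 (0.033), cenpf (0.46) and ube2c (0.50), without tank 4 for cdca8 (0.20) and ube2c (0.17), and without tank 2 for ect2 (-0.18). With wounded libraries only, kif20a was 0.13 and ect2 -0.041, and with controls only ccnb3 was -0.12. Without single libraries, ccnb3 ran from -0.031 to 0.51, cenpf from -1.17 to 0.025 and ect2 from -0.072 to 0.40.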
